A study of Homo sapiens with 12 samples.

Results

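ABC (ATP-binding cassette) genes encode membrane pumps that use ATP to move lipids, conjugates, drugs, peptides and cofactors across membranes, together with a few soluble relatives that act on the ribosome. The members described here are the 42 genes, of 19775 with a probe set of their own on the array, whose symbol consists of ABC, a subfamily letter from A to G and a number. They fell into 11 ABCA, 8 ABCB, 11 ABCC, 3 ABCD, 1 ABCE, 3 ABCF and 5 ABCG genes, and 37 of the 42 were bright enough to be tested. Each gene was read from its brightest probe set, by the mean of all 12 arrays, and its level is given as log2 signal. ABC genes that carry other names (TAP1, TAP2 and CFTR) are given beside the members and are not counted among them.

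The cells were A549, a human lung adenocarcinoma line, in 4 groups of 3 arrays. The FAM60A knockdown (current symbol SINHCAF) received an siRNA against that gene and was set against its own cells with a non-targeting siRNA. The SDS3 knockdown (current symbol SUDS3) was set against separate non-targeting controls, and all siRNAs were at 50 nM for 3 days. The labels' treatment text gives 1 siRNA for FAM60A and 1 non-targeting siRNA and does not give the one for SDS3. Both genes encode subunits of the SIN3-HDAC complex, which takes histone deacetylases to chromatin. The labels describe triplicate wells of 1 line without naming separate cultures, so each p-value speaks of the spread among these samples alone, which may be technical, and 3 arrays per group limit the precision.

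As background, ABCA and ABCG proteins mostly carry lipids, and ABCA1 hands cholesterol to apolipoprotein A-I under the control of the LXR receptors. ABCC proteins export glutathione and glucuronide conjugates, and with ABCG2 and ABCB1 they are known for drug efflux from tumour cells. ABCD proteins serve peroxisomes and lysosomes, while ABCE and ABCF proteins have no membrane part and act in translation. A549 is known for a defective KEAP1 gene that leaves the stress factor NRF2 active, and several ABCC genes and ABCG2 are known targets of NRF2 or of the aryl hydrocarbon receptor AHR.

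Each targeted transcript was low in its own knockdown. SINHCAF averaged 9.30 ± 0.163 in the FAM60A knockdown and 11.99 ± 0.0195 in its controls (log2 signal, SD, n = 3 each), 15.5% of the control level. SUDS3 averaged 8.47 ± 0.151 in the SDS3 knockdown and 10.05 ± 0.0463 in its controls (n = 3 each), 33.4% of the control level. SINHCAF was higher by 0.35 (log2) in the SDS3 knockdown (limma adjusted p = 0.00291), while its dimmer probe set had 0.06 and did not pass. SUDS3 had 0.04 in the FAM60A knockdown, and its dimmer probe set had -0.28, without passing. The median signal was 186.01 to 192.56 on the 6 FAM60A arrays but only 96.815 to 98.318 on the 6 SDS3 arrays, and no level is set across the experiments. Of the epithelial markers of A549, all 6 were above log2 5. Their mean level lay at 12.24 to 12.28 in the FAM60A knockdown against 12.42 to 12.48 in its controls, and at 11.42 to 11.49 in the SDS3 knockdown against 11.91 to 11.96 in its controls. Of these markers 2 rose (KRT7 by 0.27 and KRT19 by 0.50) and 2 fell (EPCAM by 1.22 and CDH1 by 0.49) in the FAM60A knockdown. In the SDS3 knockdown KRT7 rose by 0.25 and the other 5 fell, with CDH1 (-1.52) and EPCAM (-0.58) the most. Of 6 alveolar type 2 markers, 1 fell in the FAM60A knockdown (LAMP3), and of 5 tested blood and endothelial markers 1 fell in the SDS3 knockdown (CD14, -0.28). The part of these shifts in the ABC results was not tested, and in bulk RNA fewer cells of a kind and less RNA per cell cannot be told apart.

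More ABC genes were called higher than lower in the FAM60A knockdown (12 against 5), whereas in the SDS3 knockdown 6 were higher, 9 lower and 22 not called. In the FAM60A knockdown 17 of 37 tested members (45.9%) passed limma at an adjusted p under 0.05, beside 36.8% of all 18621 tested genes. Of these, 12 members were higher (32.4%, beside 19.2% of all genes) and 5 were lower (13.5%, beside 17.6%). The 12 include ABCA12, which was near background in both experiments. In the SDS3 knockdown 15 members passed (40.5%, beside 34.6% of all genes). There 6 were higher (16.2%, beside 15.8%, a share at the level of all genes) and 9 were lower (24.3%, beside 18.8%), among them ABCA12, whose 6 SDS3 values all lay under log2 5. These shares of all genes are also the background for the counts by subfamily and gene list that follow. The median log2 change of the members was 0.085 in the FAM60A knockdown and -0.019 in the SDS3 knockdown, beside -0.023 and 0.0064 for all tested genes. With arrays scaled to spike-in RNA, 6 members were higher and 4 lower in the FAM60A knockdown, beside 7.24% and 10.6% of all genes. With that scaling 0 were higher (limma; also 0 at an unadjusted p under 0.05) and 21 lower in the SDS3 knockdown, where 2.72% of all genes were higher and 50.1% lower. With scaling to hybridization controls, a choice made after seeing the data, 12 were higher and 3 lower in the FAM60A knockdown (beside 21.5% and 9.78% of all genes), and 3 higher and 11 lower in the SDS3 knockdown (beside 9.18% and 23.8%).

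Most changes were modest. Only ABCD3 in the FAM60A knockdown and ABCG2 in the SDS3 knockdown passed with at least a 2-fold change, 1 member of 37 in each, beside 1.84% and 1.85% of all genes. The 3 knockdown arrays lay wholly above or below the 3 controls for 24 members in the FAM60A experiment, beside 48.1% of all genes, with 15 above (23.7% of all genes) and 9 below (24.4%). In the SDS3 experiment this held for 18 members, beside 47.6% of all genes, with 9 above (22.4%) and 9 below (25.2%). The calls fell into patterns: ABCA1, ABCA3 and ABCC4 rose in both knockdowns (8.11% of members, beside 9.33% of all genes), and ABCA5, ABCD3 and ABCG2 fell in both (8.11%, beside 8.76%). ABCC2 and ABCC3 rose in the FAM60A knockdown and fell in the SDS3 knockdown (5.41%, beside 1.81%). ABCA12 was called the same way (8.11% with it), but it was tested only through its FAM60A arrays. A further 8 members were called in the FAM60A knockdown alone (21.6%, beside 16.1% of all genes), 6 in the SDS3 knockdown alone (16.2%, beside 13.9%) and 14 in neither (37.8%, beside 49.3%). These calls rest on the brightest probe set of each gene. With the mean of all probe sets ABCC5, ABCC10 and ABCG1 were also called higher and ABCB6 lower in the FAM60A knockdown, and ABCA4 higher in the SDS3 knockdown. The same setting ended the FAM60A calls of ABCA4, ABCB9, ABCB5 and ABCD3 and the SDS3 calls of ABCD3 and ABCD4. The dimmer ABCD3 probe set passed in the opposite direction in both knockdowns.

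**Figure D1:**
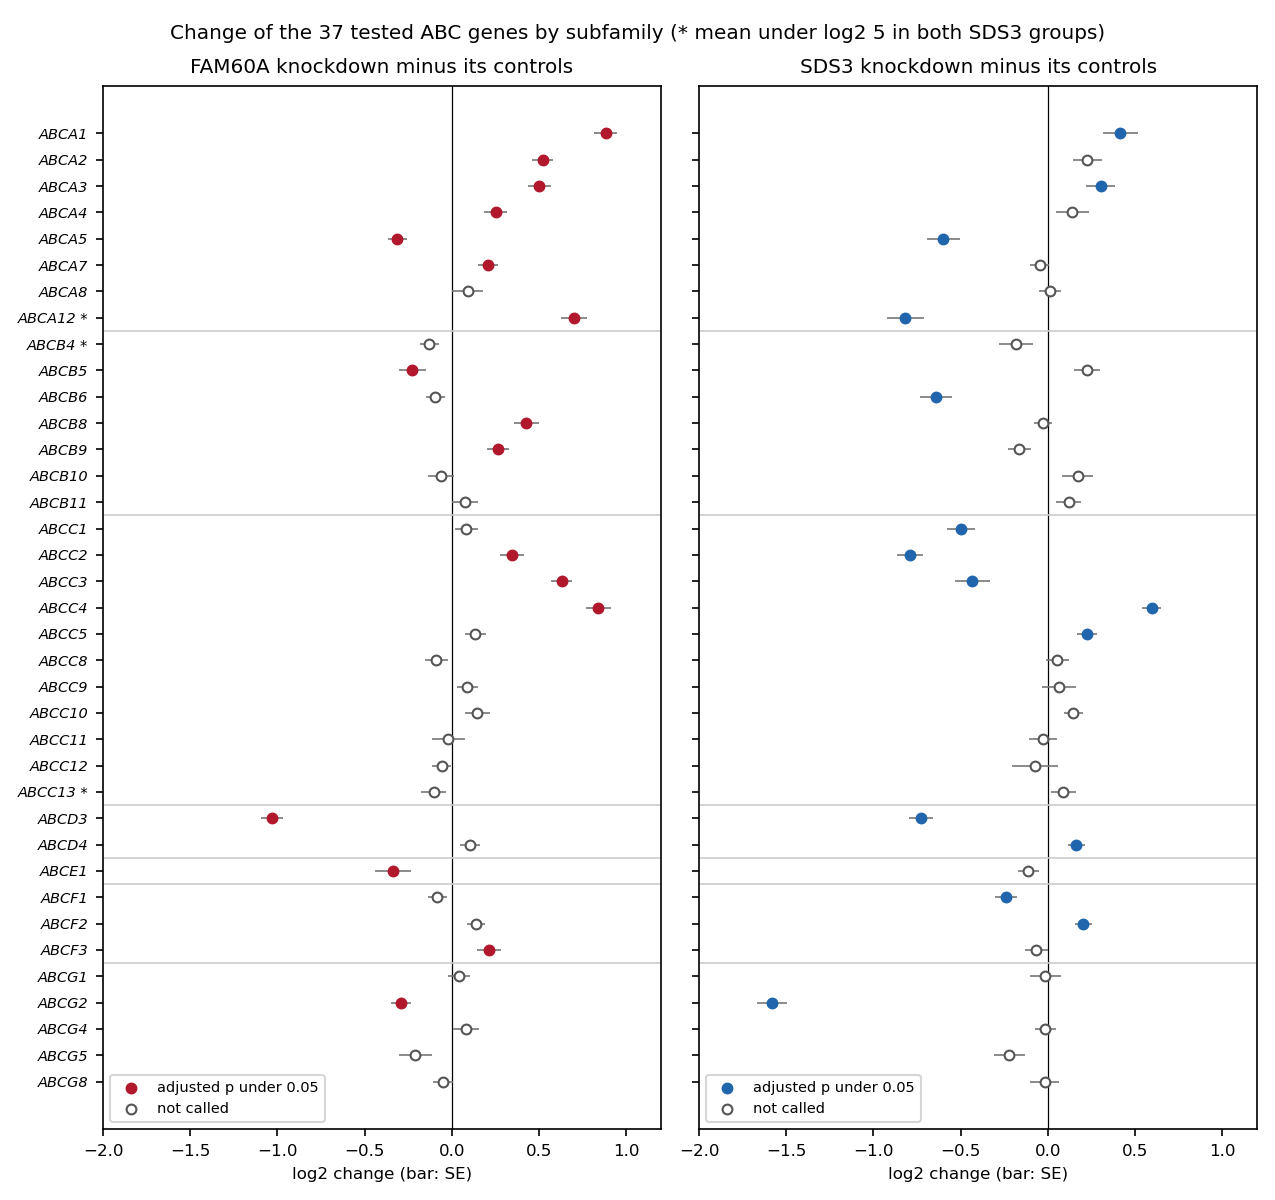
Log2 change of the 37 tested ABC genes, knockdown minus its own controls, with the FAM60A knockdown on the left and the SDS3 knockdown on the right; points are limma estimates, bars are SE, filled points passed at an adjusted p under 0.05, and lines separate the subfamilies. In the left panel 6 of 8 ABCA genes are filled and above 0, while ABCD3 lies lowest at -1.03; in the right panel ABCG2 lies lowest at -1.58.

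Most of the lipid carriers of the ABCA subfamily rose in the FAM60A knockdown. Of 8 tested ABCA genes, 6 rose, 1 fell and 1 did not pass, beside 19.2% higher and 17.6% lower among all genes, with a median log2 change of 0.38. With SDS3 depleted, 2 rose, 2 fell and 4 did not pass, close to the 15.8% and 18.8% of all genes, with a median of 0.077. ABCA1, ABCA2, ABCA3, ABCA4, ABCA7 and ABCA12 were the 6 that rose, and ABCA5 was the gene that fell in both. Among the 6, ABCA12 was near background in both experiments.

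ABCA1, the pump that loads cholesterol and phospholipid onto apolipoprotein A-I, had the largest rise of the family. Its log2 signal was 10.85, 10.73 and 10.69 in the FAM60A knockdown, against 9.93, 9.77 and 9.91 in the controls. All 3 knockdown arrays lay well above the controls, a rise of 1.84-fold (log2 change 0.88, SE 0.0666, n = 3 each, limma adjusted p = 2.6e-06). The SDS3 knockdown arrays had 9.31, 9.45 and 9.68, against 8.95, 9.06 and 9.19 in the controls. There the lowest knockdown array stood just above the highest control, and the rise was 1.33-fold (log2 change 0.42, SE 0.0995, adjusted p = 0.0114). With arrays scaled to spike-in RNA the SDS3 change kept its sign at 0.094 and did not pass (adjusted p = 0.552). A second bright probe set of ABCA1 changed by 1.03 and 0.42 (log2), and its 2 dim ones by -0.06 and 0.03 in the FAM60A knockdown and by 0.03 and 0.15 in the SDS3 knockdown, without passing.

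The bases before the ABCA1 start are shown because this gene rose in both knockdowns. The 250 bases at chr9:104928156-104928405 (RefSeq, GRCh38.p14, minus strand, 5′ to 3′) hold 1 E-box (CACGTG) and 3 GC boxes (GGGCGG), searched on both strands and printed in capitals.
ABCA1: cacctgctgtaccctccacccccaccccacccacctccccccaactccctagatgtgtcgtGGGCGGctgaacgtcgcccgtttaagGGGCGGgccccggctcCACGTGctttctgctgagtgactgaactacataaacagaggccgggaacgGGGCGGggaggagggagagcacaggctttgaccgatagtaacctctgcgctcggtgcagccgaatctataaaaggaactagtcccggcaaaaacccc
Across all 35116 windows of this length in the RefSeq table, 6.34% held an E-box and 42.6% a GC box.

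ABCA12, which carries glucosylceramide in skin, was near the background of the array. It read 5.75, 5.95 and 5.81 in the FAM60A knockdown, against 5.26, 5.03 and 5.13 in the controls. The groups were apart, with a rise of 0.70 (log2 change, SE 0.0759, adjusted p = 3.49e-05). In the SDS3 experiment it read 3.96, 3.91 and 4.20 in the knockdown, against 4.63, 4.98 and 4.91 in the controls. All 6 of those values lie under log2 5, and the log2 change of -0.82 passed (adjusted p = 0.00045). Its mean lay at percentile 16.4 of the probe sets on the FAM60A arrays and 16.7 on the SDS3 arrays. The gene was thus about equally dim in both experiments, and neither change is given as a fold.

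ABCA2, an endolysosomal lipid transporter best known from brain, read 8.67, 8.63 and 8.79 in the FAM60A knockdown, against 8.22, 8.14 and 8.17 in the controls. The groups were apart, with a rise of 1.43-fold (log2 change 0.52, SE 0.0611, adjusted p = 6.29e-05). Its change in the SDS3 knockdown was 0.23 (adjusted p = 0.0633). The FAM60A rise came from a probe set of shared sequence (a design whose probes can match related transcripts); the ABCA2 probe set without such sequence had 0.05.

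ABCA3 fills the lamellar bodies of alveolar type 2 cells with surfactant lipid. It read 9.62, 9.52 and 9.62 in the FAM60A knockdown, against 9.17, 8.99 and 9.09 in the controls, a rise of 1.42-fold (log2 change 0.50, SE 0.0647, adjusted p = 0.000122). In the SDS3 knockdown it read 9.09, 9.14 and 9.38, against 8.87, 8.99 and 8.84 in the controls. The groups did not overlap in either experiment. The SDS3 rise was 1.24-fold (log2 change 0.30, SE 0.0829, adjusted p = 0.0205), but spike-in scaling turned it to -0.018, and without control replicate 1 or 3 it did not pass (adjusted p = 0.0574 and 0.0706).

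ABCA5, an endolysosomal lipid transporter, went the other way in both. It read 8.52, 8.52 and 8.45 in the FAM60A knockdown, against 8.80, 8.85 and 8.78 in the controls, and 80.5% of the control level was left (log2 change -0.31, SE 0.0544, adjusted p = 0.000949). In the SDS3 knockdown it read 6.92, 6.83 and 7.15, against 7.42, 7.67 and 7.60 in the controls, and 66.0% was left (log2 change -0.60, SE 0.0941, adjusted p = 0.00128). Every knockdown array was below every control. The smaller FAM60A rises were those of ABCA4, the retinoid lipid flippase of photoreceptors (0.25, adjusted p = 0.0114), and ABCA7, a phospholipid transporter studied in phagocytes (0.21, adjusted p = 0.0145). Neither passed with spike-in scaling (0.165 and 0.119), and ABCA7 did not pass without control replicate 3 or knockdown replicate 3 (adjusted p = 0.0573 and 0.0625). Their SDS3 changes, 0.14 and -0.05, did not pass, although a dimmer ABCA4 probe set rose by 0.50 there (adjusted p = 0.00902 among all probe sets).

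Genes that work beside ABCA1 were read from 2 lists. Of 15 tested cholesterol carriers and acceptors, 8 rose and 1 fell in the FAM60A knockdown (median 0.39, beside 19.2% higher and 17.6% lower among all genes), and 7 rose and 2 fell in the SDS3 knockdown (median 0.093, beside 15.8% and 18.8%). NPC1, which releases cholesterol from lysosomes, rose by 1.23 and 0.32 (log2) in the FAM60A and SDS3 knockdowns. STARD4, a soluble sterol carrier, rose by 0.69 and 0.92, and LCAT, which esterifies cholesterol on lipoproteins, rose by 0.65 and 0.59. NPC2, the luminal partner of NPC1, rose by 0.39 and 0.59. SOAT1, which stores cholesterol as ester, fell by 0.60 and 0.21. Among 11 regulators (LXR, RXR, SREBP, PPAR and LXR targets), 2 rose and 2 fell in the FAM60A knockdown (median -0.030), and 1 rose and 4 fell in the SDS3 knockdown (median -0.12). NR1H3, which encodes LXR-alpha, fell by 0.27 and 0.40, and MYLIP, an LXR target that degrades the LDL receptor, fell by 0.60 and 0.71. PPARG changed by -0.03 (adjusted p = 0.721) in the FAM60A knockdown and fell by 0.45 in the SDS3 knockdown, whereas PPARA rose by 0.33 and SREBF2 by 0.28 in the FAM60A knockdown.

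Among 8 lamellar body and surfactant genes, which accompany ABCA3 in alveolar type 2 cells, 2 rose and 1 fell in the FAM60A knockdown and 2 rose in the SDS3 knockdown. CTSH, a protease that processes surfactant proteins, rose by 1.36 and 0.86, and LPCAT1, which makes surfactant phospholipid, rose by 0.97 and 0.25. LAMP3, a lamellar body membrane protein, fell by 0.27 in the FAM60A knockdown. The surfactant protein gene SFTPC had -0.14 and -0.03 and did not pass in either.

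The ABCC subfamily and ABCG2, the conjugate and drug exporters, held the 3 largest differences between the knockdowns when ABCA12, near background, is not ranked. Of 11 tested ABCC genes, 3 rose and 8 did not pass in the FAM60A knockdown (median 0.090). Of the same genes 2 rose, 3 fell and 6 did not pass in the SDS3 knockdown (median 0.054). ABCC1, ABCC2, ABCC3 and ABCG2 were all lower in the SDS3 knockdown, whereas ABCC2 and ABCC3 were higher in the FAM60A knockdown.

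**Figure D2:**
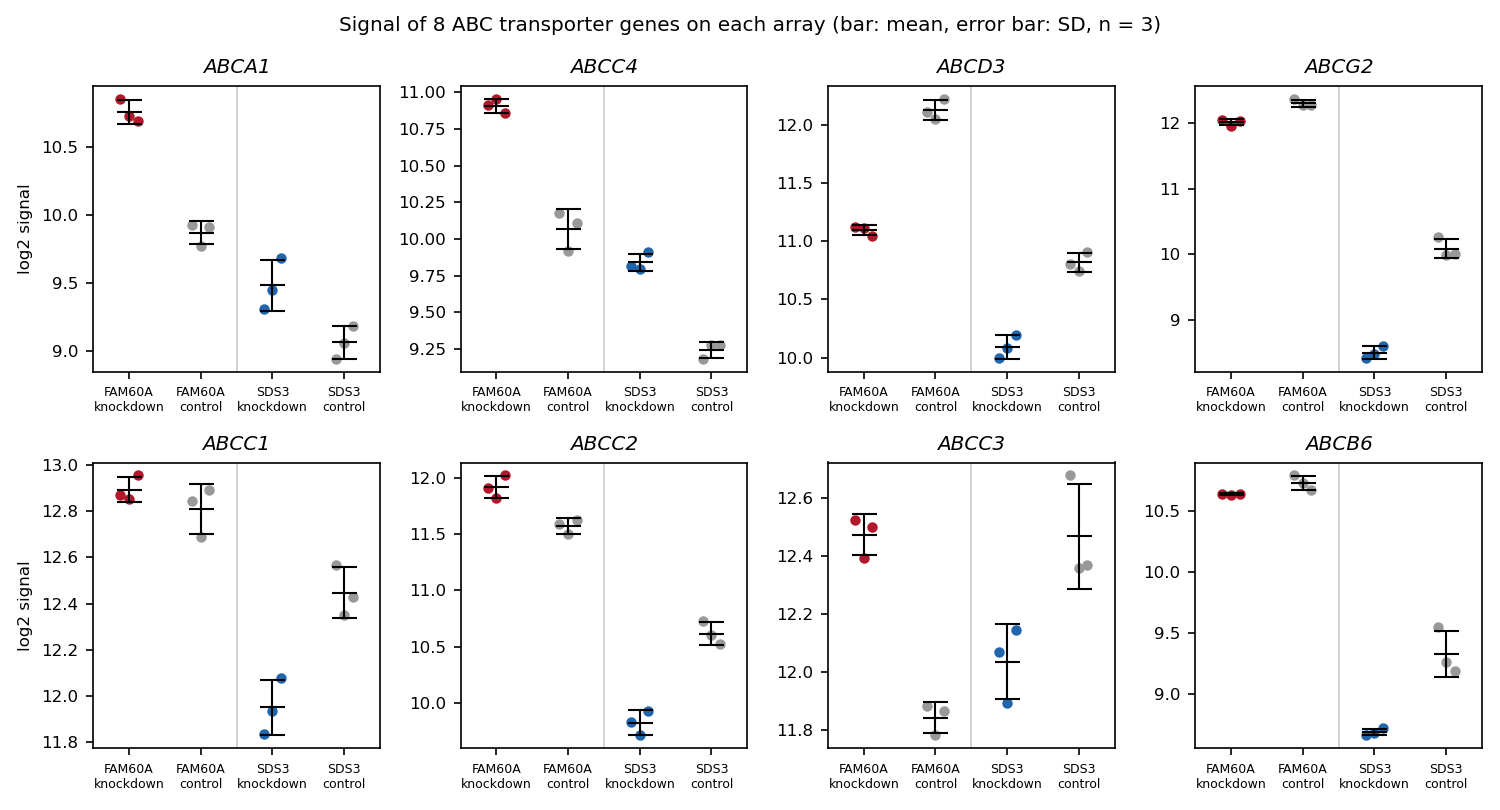
Log2 signal of 8 ABC genes on each array, with its own scale for every gene; points are arrays, bars the mean and SD of 3, and a vertical line separates the FAM60A from the SDS3 experiment, whose levels are not comparable. ABCG2 lies between 8.42 and 8.61 in the SDS3 knockdown against 10.00 to 10.26 in its controls, the widest gap of the family.

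ABCG2, the breast cancer resistance protein that exports drugs, urate and porphyrins, had the largest change of the family. It read 8.42, 8.48 and 8.61 in the SDS3 knockdown, against 10.26, 10.00 and 10.00 in the controls. Knockdown and control arrays were more than a log2 unit apart, and 33.4% of the control level was left (log2 change -1.58, SE 0.0836, n = 3 each, limma adjusted p = 4.26e-06). In the FAM60A knockdown it read 12.05, 11.96 and 12.03, against 12.37, 12.27 and 12.27 in the controls. That fall was small and without overlap, to 81.7% (log2 change -0.29, SE 0.0575, adjusted p = 0.00221), and scaling to hybridization controls ended its call (-0.221, adjusted p = 0.0529). The gene has a single probe set. The SDS3 fall lay between -1.50 and -1.90 under every alternative tried.

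The upstream bases of ABCG2 and ABCC2 are set side by side, since these exporters fell most in the SDS3 knockdown apart from ABCA12. The ABCG2 window, at chr4:88158860-88159109 (GRCh38.p14, minus strand), is 1 of 5 that RefSeq lists and was picked because it holds an E-box. Of the others, only the overlapping window at chr4:88158910-88159159 holds an E-box, and it is the same site. The ABCG2 window shown also holds 2 GC boxes, and capitals again mark both motifs. The ABCC2 window, at chr10:99782390-99782639 (plus strand), holds none of the 4 motifs searched.
ABCG2: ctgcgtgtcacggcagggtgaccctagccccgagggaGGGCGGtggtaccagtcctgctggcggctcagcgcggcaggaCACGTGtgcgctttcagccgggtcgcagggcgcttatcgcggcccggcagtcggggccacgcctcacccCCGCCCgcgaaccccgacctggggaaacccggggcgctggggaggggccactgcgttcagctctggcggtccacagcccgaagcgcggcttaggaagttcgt
ABCC2: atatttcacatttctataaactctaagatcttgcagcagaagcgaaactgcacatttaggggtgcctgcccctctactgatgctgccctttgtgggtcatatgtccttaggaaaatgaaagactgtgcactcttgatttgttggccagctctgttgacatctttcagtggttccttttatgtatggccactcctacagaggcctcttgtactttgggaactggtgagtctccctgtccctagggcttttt
The other motifs searched on both strands were the NRF2 core TGACNNNGC and the AHR core TNGCGTG. The NRF2 core lay in 9 of 49 windows of the members and in 10.9% of all windows, and the AHR core in 1 of 49 and in 4.52%. The E-box lay in 9 of 49 (8 members, with the shared ABCG2 site counted in both its windows) and in 6.34%. The GC box lay in 25 of 49 and in 42.6%. Windows were found for 33 of the 42 members, and an absent match says only that these letters are not in these bases.

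ABCC2, the canalicular conjugate exporter of liver (MRP2), read 11.90, 11.82 and 12.02 in the FAM60A knockdown, against 11.59, 11.50 and 11.63 in the controls. It read 9.83, 9.71 and 9.93 in the SDS3 knockdown, against 10.73, 10.60 and 10.52 in the controls. The arrays were separated in both experiments and in opposite directions. It rose 1.27-fold in the FAM60A knockdown (log2 change 0.35, SE 0.0666, adjusted p = 0.00188), a call lost with spike-in scaling (0.257). What was left in the SDS3 knockdown was 57.8% of the control level (log2 change -0.79, SE 0.0754, adjusted p = 7.99e-05).

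ABCC3, a basolateral exporter of glucuronides and bile salts (MRP3), read 12.52, 12.39 and 12.50 in the FAM60A knockdown, against 11.88, 11.78 and 11.86 in the controls. Its SDS3 knockdown arrays read 12.07, 11.89 and 12.14, against 12.68, 12.36 and 12.37 in the controls. Again the groups were separate and the directions opposed. The FAM60A rise was 1.55-fold (log2 change 0.63, SE 0.0603, adjusted p = 1.45e-05), and 74.1% was left in the SDS3 knockdown (log2 change -0.43, SE 0.0997, adjusted p = 0.00952). Its next brightest probe set, also of shared sequence, changed by 0.65 and -0.44, while the 1 probe set without shared sequence had -0.01 and -0.10 and did not pass.

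ABCC4, the exporter of cyclic nucleotides and prostaglandins (MRP4), rose in both. It read 10.91, 10.95 and 10.86 in the FAM60A knockdown, against 10.18, 9.92 and 10.11 in the controls. The SDS3 knockdown arrays read 9.82, 9.80 and 9.91, against 9.18, 9.28 and 9.28 in the controls. No arrays of knockdown and control overlapped. The rises were 1.79-fold (log2 change 0.84, SE 0.0722, adjusted p = 6.63e-06) and 1.51-fold (log2 change 0.60, SE 0.0561, adjusted p = 7.5e-05). Of its other probe sets, 2 changed by 0.89 and 0.68 in the FAM60A knockdown but by 0.07 and -0.03 in the SDS3 knockdown. The dimmest one had 0.23 in both. It passed in the SDS3 knockdown (adjusted p = 0.0412 among all probe sets) and not in the FAM60A knockdown (adjusted p = 0.0576). With spike-in scaling the SDS3 rise of the brightest probe set was 0.273 and did not pass.

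ABCC1, the glutathione conjugate exporter MRP1, read 11.84, 11.94 and 12.08 in the SDS3 knockdown, against 12.57, 12.35 and 12.43 in the controls. The arrays did not overlap, and 70.8% was left (log2 change -0.50, SE 0.0797, adjusted p = 0.00141). Its second probe set fell as well, by 0.66, and its change in the FAM60A knockdown was 0.08 (adjusted p = 0.366). ABCC5, an exporter of cyclic nucleotides and heme (MRP5), read 9.65, 9.66 and 9.72 in the SDS3 knockdown, against 9.54, 9.39 and 9.42 in the controls. Its rise of 0.23 (adjusted p = 0.0158) turned to -0.097 with spike-in scaling and did not pass without control replicate 2 or 3 (adjusted p = 0.0652 and 0.056). In the FAM60A knockdown this shared-sequence probe set of ABCC5 had 0.14 (adjusted p = 0.115). Its brightest probe set without shared sequence rose by 0.47 there (adjusted p = 0.000174 among all probe sets), and the mean of all its probe sets by 0.27 (adjusted p = 0.00265).

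Sensors and enzymes that act beside these exporters changed in both directions. The shares of all genes beside their counts are 19.2% higher and 17.6% lower in the FAM60A knockdown, and 15.8% and 18.8% in the SDS3 knockdown. Among 7 drug-sensing regulators, 1 rose and 2 fell in the FAM60A knockdown, and 1 rose and 3 fell in the SDS3 knockdown. AHR fell by 0.80 and 0.99, KEAP1 by 0.39 and 0.49, and HIF1A rose by 0.45 and 0.33. NFE2L2, which encodes NRF2, fell by 0.40 in the SDS3 knockdown and had -0.18 (adjusted p = 0.109) in the FAM60A knockdown. Among 11 conjugation enzymes, 2 rose and 2 fell in the FAM60A knockdown, and 1 rose and 4 fell in the SDS3 knockdown. GCLC, the catalytic subunit of glutathione synthesis, fell by 0.71 and 0.72, and its modifier subunit GCLM fell by 0.52 and 0.30. SULT2B1, a sterol sulfotransferase, rose by 0.77 in the FAM60A knockdown and had -0.03 in the SDS3 knockdown, where the glutathione transferase gene GSTA4 fell by 0.45.

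The organelle members were led by ABCD3, which encodes the peroxisomal membrane protein PMP70 that imports acyl-CoA. It read 11.12, 11.12 and 11.05 in the FAM60A knockdown, against 12.11, 12.05 and 12.22 in the controls. The FAM60A groups lay about a log2 unit apart, and 48.9% was left (log2 change -1.03, SE 0.0613, n = 3 each, limma adjusted p = 4.93e-07). In the SDS3 knockdown it read 9.99, 10.09 and 10.20, against 10.81, 10.74 and 10.90 in the controls. That fall, also without overlap, left 60.5% (log2 change -0.73, SE 0.0691, adjusted p = 7.97e-05). The other ABCD3 probe set, which is dimmer, rose by 0.73 and 0.43 and passed in the opposite direction in both experiments. The mean of both probe sets changed by -0.148 and -0.15 and did not pass.

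The ABCD3 upstream bases, at chr1:94418139-94418388 (GRCh38.p14, plus strand), are shown because the brighter probe set of this gene fell in both knockdowns. They hold 4 GC boxes, in capitals (CCGCCC is the same motif read on the other strand), and none of the other 3 motifs.
ABCD3: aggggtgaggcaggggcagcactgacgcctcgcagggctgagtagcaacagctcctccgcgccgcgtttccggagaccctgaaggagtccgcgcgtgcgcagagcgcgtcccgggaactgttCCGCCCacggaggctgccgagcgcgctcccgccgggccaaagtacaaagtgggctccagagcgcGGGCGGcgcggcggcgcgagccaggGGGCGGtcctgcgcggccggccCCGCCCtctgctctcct

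ABCD4, which passes cobalamin out of lysosomes, read 9.11, 9.14 and 9.12 in the SDS3 knockdown, against 8.94, 8.99 and 8.95 in the controls. The arrays were apart by a narrow margin, and its rise of 0.16 (SE 0.0475, adjusted p = 0.0276) turned to -0.16 with spike-in scaling. Leaving out any 1 of 5 of the 6 SDS3 arrays ended the call, with adjusted p from 0.0589 to 0.0796. Of 10 tested peroxisomal partners, 1 rose and 2 fell in the FAM60A knockdown, and 4 fell in the SDS3 knockdown. PEX19, the chaperone that brings PMP70 to peroxisomes, fell by 0.67 and 0.25. CRAT, a carnitine acetyltransferase, rose by 0.25 in the FAM60A knockdown, and the thioesterase gene ACOT8 fell by 0.37 in the SDS3 knockdown.

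Of 7 tested ABCB genes, 2 rose, 1 fell and 4 did not pass in the FAM60A knockdown, and 1 fell and 6 did not pass in the SDS3 knockdown. ABCB6, a porphyrin transporter of mitochondria and lysosomes, read 8.66, 8.68 and 8.72 in the SDS3 knockdown, against 9.54, 9.26 and 9.18 in the controls. The knockdown arrays were close together and all below the controls, and 64.1% was left (log2 change -0.64, SE 0.0891, adjusted p = 0.00065). Its other, dimmer probe set had 0.10 there and did not pass. In the FAM60A knockdown ABCB6 had -0.09 (adjusted p = 0.223), while that other probe set fell by 0.20 (adjusted p = 0.0297 among all probe sets). The mean of both probe sets gave -0.15 (adjusted p = 0.0264) in the FAM60A knockdown and -0.27 (adjusted p = 0.0025) in the SDS3 knockdown, and with it the changes did not differ between the knockdowns at the threshold (-0.12, adjusted p = 0.151).

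ABCB8, a mitochondrial inner membrane exporter, read 9.25, 9.13 and 9.18 in the FAM60A knockdown, against 8.67, 8.89 and 8.72 in the controls. The groups were apart, the rise was 1.35-fold (log2 change 0.43, SE 0.0697, adjusted p = 0.000613), and a second probe set rose by 0.38. Spike-in scaling gave 0.340 and ended the call (adjusted p = 0.0752). ABCB9, a lysosomal peptide transporter, rose by 0.26 (adjusted p = 0.00756) on a shared-sequence probe set, and its probe set without shared sequence had -0.21 (adjusted p = 0.0753). ABCB5, known as a marker of limbal stem cells and melanoma cells, read 7.40, 7.24 and 7.39 in the FAM60A knockdown, against 7.46, 7.73 and 7.51 in the controls. Those groups came close without overlapping, and the fall of 0.23 (adjusted p = 0.0445) was lost without any 1 of 5 of the 6 FAM60A arrays (adjusted p from 0.0519 to 0.16). In the SDS3 knockdown ABCB5 had 0.23 with its groups apart and narrowly did not pass (adjusted p = 0.0506). That SDS3 change passed under 6 of 22 alternatives. ABCB10, a mitochondrial transporter tied to heme synthesis, had -0.06 and 0.17 and did not pass.

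The iron-sulfur and heme genes around the mitochondrial ABCB proteins changed in both directions. Of 11 tested, 3 rose and 5 fell in the FAM60A knockdown, and 5 rose and 4 fell in the SDS3 knockdown. SLC25A37, the mitochondrial iron importer mitoferrin 1, rose by 1.06 and 1.61. PPOX, a late enzyme of heme synthesis, rose by 0.50 and 0.20, while CPOX, the enzyme before it, fell by 0.38 in the FAM60A knockdown and rose by 0.28 in the SDS3 knockdown. NFS1, which supplies sulfur for clusters, fell by 0.27 and 0.50, and GLRX5, a cluster carrier, fell by 0.23 and 0.52.

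The members that act on ribosomes changed little. ABCE1, which splits ribosomes after termination, read 11.50, 11.57 and 11.59 in the FAM60A knockdown, against 12.06, 11.62 and 12.004 in the controls. The second control stood close to the knockdown arrays, and 79.2% was left (log2 change -0.34, SE 0.101, adjusted p = 0.0231). Without control replicate 1 the change was -0.254 (adjusted p = 0.0894), and 3 other left-out arrays also ended the call. Its second probe set fell too, by 0.27, and the SDS3 change was -0.11 (adjusted p = 0.207).

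ABCF1, a partner of initiation factor eIF2, fell by 0.24 in the SDS3 knockdown (adjusted p = 0.0189) and had -0.08 in the FAM60A knockdown. That call was lost without control replicate 1 or knockdown replicate 1 (adjusted p = 0.0526 and 0.0733). ABCF2, a soluble ATPase, read 10.54, 10.58 and 10.61 in the SDS3 knockdown, against 10.38, 10.39 and 10.35 in the controls. Its groups were apart, but the rise of 0.20 (adjusted p = 0.0117) turned to -0.12 with spike-in scaling. The dimmer ABCF2 probe sets had 0.17, 0.21, 0.27 and 0.24 there, of which all but the first passed. In the FAM60A knockdown ABCF2 had 0.14 (adjusted p = 0.0557). Its dimmer probe sets had 0.12, 0.25, -0.09 and -0.09, of which 0.25 passed (adjusted p = 0.00986 among all probe sets). ABCF3, a soluble relative, rose by 0.21 in the FAM60A knockdown (adjusted p = 0.0331), where it lost the call without control replicate 1 or 3 or without knockdown replicate 3 (adjusted p from 0.0888 to 0.131). Of 12 recycling and initiation partners, 5 fell in the FAM60A knockdown, and 2 rose and 5 fell in the SDS3 knockdown. EIF2S1, the eIF2 alpha subunit, fell by 0.40 and 0.26, and the termination factor gene GSPT1 fell by 0.33 and 0.25. EIF2S3, the eIF2 gamma subunit, rose by 0.38 in the SDS3 knockdown.

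The ABC genes with other names moved little. TAP1, a subunit of the peptide pump of antigen presentation, had -0.09 (adjusted p = 0.254) in the FAM60A knockdown and a rise of 0.34 in the SDS3 knockdown (adjusted p = 0.0111). TAP2, the other subunit, fell by 0.22 in the FAM60A knockdown (adjusted p = 0.0226) and had -0.02 in the SDS3 knockdown. The chloride channel gene CFTR had -0.12 and -0.03 and did not pass. Of 11 peptide loading partners, 1 rose and 5 fell in the FAM60A knockdown, and 1 rose and 3 fell in the SDS3 knockdown. PSMB9, an immunoproteasome subunit, fell by 1.02 and 0.36. The peptide trimming gene ERAP1 fell by 0.58 in the FAM60A knockdown and had -0.01 in the SDS3 knockdown, and TAPBP, which encodes tapasin, rose by 0.39 in the FAM60A knockdown.

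The remaining members gave no call on their brightest probe set. ABCA8, ABCB4, ABCB10, ABCB11, ABCC8, ABCC9, ABCC10, ABCC11, ABCC12, ABCC13, ABCG1, ABCG4, ABCG5 and ABCG8 passed in neither knockdown. Their log2 changes lay between -0.21 and 0.15 in the FAM60A knockdown (adjusted p from 0.103 to 0.899) and between -0.22 and 0.17 in the SDS3 knockdown (adjusted p from 0.0742 to 0.923). They include the bile salt exporter ABCB11, the sulfonylurea receptors ABCC8 and ABCC9, the sterol pair ABCG5 and ABCG8, and ABCC13, which RefSeq lists as a transcribed pseudogene. ABCG1, which passes cholesterol to HDL and is an LXR target like ABCA1, had 0.04 and -0.01 on its brightest probe set. Its 3 dimmer probe sets had 0.42, 0.33 and 0.29 in the FAM60A knockdown, of which the last passed (adjusted p = 0.0301 among all probe sets), and 0.15, 0.65 and 0.14 in the SDS3 knockdown, of which 0.65 passed (adjusted p = 0.0394). The mean of all ABCG1 probe sets gave 0.27 in the FAM60A knockdown, which passed (adjusted p = 0.0254), and 0.23 in the SDS3 knockdown, which did not (adjusted p = 0.12). KCNJ8, the potassium channel pore that pairs with ABCC9, rose by 0.22 and 0.31, and KCNJ11, the pore that pairs with ABCC8, had -0.05 and -0.18 without passing.

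Some members were too dim to follow. ABCA6, ABCA9, ABCA13, ABCB1 and ABCD2 were not tested. ABCB1, the multidrug pump P-glycoprotein, read 4.26, 4.15 and 4.29 in the FAM60A knockdown, against 4.31, 4.27 and 4.35 in the controls, and 4.25, 4.29 and 4.18 in the SDS3 knockdown, against 4.58, 4.29 and 4.40 in the controls. All 12 values of this probe set lie under log2 5, so no change is given. A brighter probe set listed for both ABCB4 and ABCB1 was not used, since it cannot tell the 2 genes apart. Its means were 6.85 against 6.89 in the FAM60A controls and 5.71 against 5.73 in the SDS3 controls, without passing. In the SDS3 experiment ABCA12, ABCB4 and ABCC13 were tested although both their group means lay under log2 5.

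The changes themselves differed between the knockdowns for 12 of 37 members (32.4%, beside 25.3% of all genes). The test was limma's contrast of the SDS3 change minus the FAM60A change over all 12 arrays, which assumes that both experiments share a log2 scale. The arrays do not fully meet this. The interquartile range of log2 signal was 2.92 to 3.07 on the FAM60A arrays and 3.28 to 3.34 on the SDS3 arrays. The sizes and p-values of the differences depend on that assumption. The SDS3 change was the lower one for 10 members (27.0%, beside 15.3% of all genes) and the higher one for 2 (5.41%, beside 9.99%), and these counts were 16 and 0 with scaling to hybridization controls (limma; 1 higher at an unadjusted p under 0.05), beside 23.1% and 3.02% of all genes. With spike-in scaling they were 9 and 0 (limma; also 0 higher at an unadjusted p under 0.05), beside 13.3% and 0.988% of all genes. After quantile normalization of the 12 arrays together they were 11 and 2, beside 2666 and 2258 of 18272 genes. ABCA12 is among the 10, but since its SDS3 values all lay under log2 5 the size of its difference is not ranked. Of the others ABCG2 had the largest, -1.29 (SE 0.103, adjusted p = 8.89e-07), ABCC2 with -1.14 (SE 0.104, adjusted p = 3.02e-06) and ABCC3 with -1.06 (SE 0.121, adjusted p = 2.19e-05). Of the exporters, ABCC4 did not pass (-0.25, adjusted p = 0.0724; 95% interval -0.45 to -0.04), and for ABCC5 the interval ran from -0.09 to 0.27. For ABCA3 it ran from -0.43 to 0.04.

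**Figure D3:**
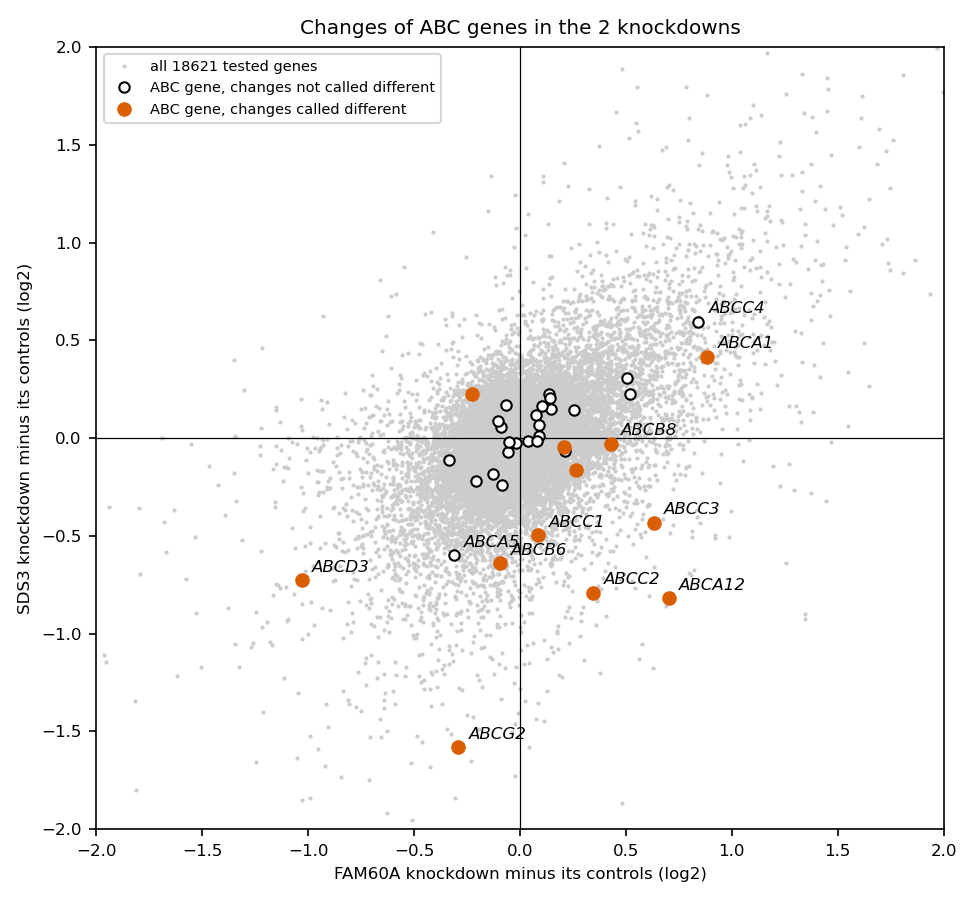
Log2 change in the SDS3 knockdown against log2 change in the FAM60A knockdown, each from its own controls; grey points are the 18621 tested genes, circles the ABC genes, filled where the 2 changes differed at an adjusted p under 0.05, and genes beyond 2 on either axis are not drawn. ABCC2, ABCC3 and ABCA12 lie at the lower right, higher in the FAM60A knockdown and lower in the SDS3 knockdown, ABCA12 with SDS3 signals under log2 5.

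Scaling to control probe sets moves all values of an array by 1 amount. The poly-A spike-in RNA, read by 12 probe sets, was 0.32 higher (log2) in the SDS3 knockdown than in its controls (p = 0.1 in a two-sided exact permutation test, which cannot go lower with 3 arrays a group) and 0.088 higher in the FAM60A knockdown (p = 0.5 in the same exact test). Scaling to it moved the median of all genes to -0.11 in the FAM60A knockdown and to -0.32 in the SDS3 knockdown. Scaling to the 9 hybridization control probe sets gave medians of 0.047 and -0.071. Changes are therefore relative to the bulk of transcripts. With spike-in scaling ABCA3, ABCC5, ABCD4 and ABCF2 changed sign in the SDS3 knockdown, while every other called member kept its sign in both experiments under both scalings.

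**Figure D4:**
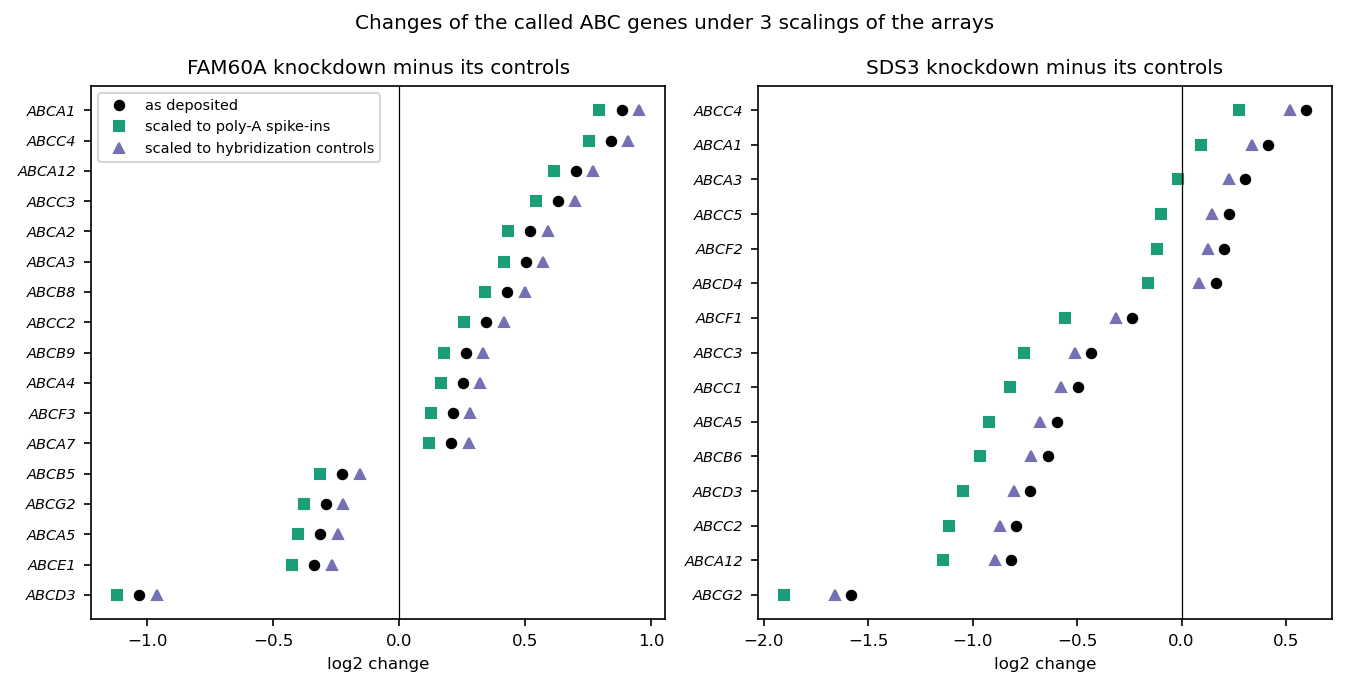
Log2 change of the called ABC genes with the arrays as deposited, scaled to the poly-A spike-in probe sets or scaled to the hybridization control probe sets, with the FAM60A knockdown on the left and the SDS3 knockdown on the right. In the SDS3 panel spike-in scaling puts ABCA3, ABCC5, ABCF2 and ABCD4 below 0, and ABCG2 at -1.90.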

How the data were processed

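RNA from 12 samples was labelled with biotin and hybridised to a 1-colour array of 54675 probe sets, per the labels. Deposited values are linear probe set intensity, made by the authors with RMA per the submitters' processing notes; settings, and whether all arrays were normalized together, are not given in the sources used here. RMA evens out the arrays it treats, which removes a change shared by most transcripts. The log2 of each intensity was taken.

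Names came from the platform annotation, updated through RefSeq's gene table. Of all probe sets, 41097 had 1 gene symbol, 1801 had several and were not used, and 11777 had none listed; 41043 matched RefSeq. The members have 96 probe sets, and 13 members have 1. Genes at log2 5 or more on at least 3 of 12 arrays were tested, 18621 in all. Both comparisons of a knockdown with its controls used 6 arrays in limma (version 3.58.1, under R 4.3.3), as lmFit followed by eBayes with Benjamini-Hochberg adjustment across all genes tested and a threshold of 0.05. Tables were read with data.table (version 1.17.8). Values of further probe sets come from a separate fit of all probe sets. The fit was tested on simulated data. Python 3.11.15, pandas 2.3.3 and matplotlib 3.10.9 made the sequence windows and plots. Numbered controls and knockdowns did not deviate together, with correlations of deviations between -0.118 and 0.034, so they were not treated as pairs.

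The members, gene lists and tests were chosen with earlier results of these data known. Every member was accounted for, by name where called. Values per array were given for up to 6 rises and 6 falls per knockdown with the largest passing change and separate groups, some further members were given in the same way after their values were seen, and from each list the members with the largest changes that passed were named, at most 3 per knockdown. List genes without a probe set of their own were not analysed here. Alternatives varied the level filter, the choice of probe set, the scaling, the samples in the fit, the variance model, a replicate block, the threshold and each replicate left out.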

Additional observations from a re-analysis of the deposited data

Results flagged for a closer look

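For 12 ABC genes the SDS3 change and the FAM60A change differed by limma's contrast over all 12 arrays at an adjusted p under 0.05, beside 25.3% of all tested genes. Values below are the SDS3 change minus the FAM60A change on the log2 scale, although the spread of log2 signal differs between the experiments. Among the lipid carriers it was -0.47 for ABCA1, -0.25 for ABCA7 and -1.52 for ABCA12, whose SDS3 values all lay under log2 5. Among the exporters it was -0.58 for ABCC1, -1.14 for ABCC2, -1.06 for ABCC3 and -1.29 for ABCG2. Among ABCB genes it was 0.45 for ABCB5, -0.55 for ABCB6, -0.46 for ABCB8 and -0.43 for ABCB9. For the peroxisomal ABCD3 it was 0.31. The differences of ABCC2 and ABCG2 passed under every alternative tried, that of ABCA12 under 25 of them, with 2 stricter level filters leaving it untested, and that of ABCC3 under all but the one without probe sets of shared sequence (-0.094). The differences of ABCB5 and ABCD3 did not pass with either scaling to control probe sets. With the mean of all probe sets those of ABCA1 (-0.22, limma adjusted p = 0.102) and ABCB9 (-0.026, adjusted p = 0.826) did not pass. Nor did those of ABCB5, ABCB6 and ABCD3 in that setting. Leaving out 1 array ended the call of ABCD3 for 4 arrays (adjusted p from 0.0574 to 0.0692) and that of ABCA7 for 3 (adjusted p from 0.0554 to 0.0618).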

How the results depend on the processing

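For the 17 members called in the FAM60A knockdown, 321 of 372 recomputed values kept their direction and side of the threshold, 49 no longer passed and 2 reversed. For the 15 of the SDS3 knockdown these were 290, 34 and 4 of 328, and for the 12 differences 290, 30 and 2 of 322. With spike-in scaling 6 members were higher in the FAM60A knockdown, 0 were higher and 21 lower in the SDS3 knockdown, and 0 had the higher SDS3 change (limma; at an unadjusted p under 0.05 these counts were also 0). With scaling to hybridization controls, chosen after seeing the data, 3 were lower in the FAM60A knockdown, 3 higher in the SDS3 knockdown, 16 had the lower SDS3 change and 0 the higher (1 at an unadjusted p under 0.05). At an adjusted p under 0.01, 3 were lower in the FAM60A knockdown, 1 was higher in the SDS3 knockdown and 0 had the higher SDS3 change (2 at an unadjusted p under 0.05). Among all 18621 tested genes these limma counts were 2125, 1880 and 952. With a minimum of 1.5-fold, 4 were higher and 1 lower in the FAM60A knockdown, 1 was higher in the SDS3 knockdown, 4 had the lower SDS3 change and 0 the higher (0 at an unadjusted p under 0.05 past that fold). Of all 18621 genes, 896 were then higher and 471 lower in the FAM60A knockdown, and 604 higher in the SDS3 knockdown. The SDS3 change was the lower one for 759 of them and the higher one for 338. With the mean of all probe sets 1 member had the higher SDS3 change, beside 1683 of 18381 genes, and the ABCD3 difference was -0.0014. Without probe sets of shared sequence ABCB9 was -0.21 in the FAM60A knockdown, 0.23 in the SDS3 knockdown and 0.44 in the difference, ABCC3 was -0.0061 in the FAM60A knockdown, ABCG1 was 0.65 in the SDS3 knockdown and the ABCC5 difference was -0.27. Spike-in scaling gave SDS3 changes of -0.018 for ABCA3, -0.097 for ABCC5, -0.16 for ABCD4 and -0.12 for ABCF2. The causes were not tested.

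With 1 replicate left out, 10 to 13 members were higher and 3 to 4 lower in the FAM60A knockdown, 4 to 7 higher and 8 to 10 lower in the SDS3 knockdown, and 1 to 3 had the higher and 9 to 12 the lower SDS3 change. Among all 18621 tested genes, 3060 to 3515 were higher and 2605 to 3200 lower in the FAM60A knockdown. For the SDS3 knockdown 2333 to 2765 were higher and 2802 to 3483 lower. From 1505 to 1890 genes had the higher SDS3 change and from 2423 to 3033 the lower. The replicate numbers do not pair the samples. With the replicate block 11 members were higher and 5 lower in the FAM60A knockdown, 6 higher and 9 lower in the SDS3 knockdown, and 2 had the higher and 9 the lower SDS3 change. In the same order these counts among all 18621 genes were 3293 and 2946, 2667 and 3181, and 1529 and 2474. Signal near background limits what can be said of dim members: 8 of 42 had both SDS3 group means under log2 5.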
